A study of Mus musculus with 6 samples.

Results

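The FGF signalling genes were taken as all genes on the array whose symbol names a fibroblast growth factor, an FGF receptor, a Sprouty or a Spred, together with a fixed set of co-receptors, adaptors, feedback inhibitors and ETS factors, namely Fgfrl1, Klb, Frs2, Frs3, Dusp6, Il17rd, Flrt2, Flrt3, Etv1, Etv4 and Etv5. Of the 12393 genes that had a probe set of their own, 38 met this rule, and they were represented by 62 of the 22626 probe sets that were not controls. Of 44 mouse genes that the rule names in the RefSeq annotation, Etv1, Flrt2, Flrt3, Frs2, Spred3 and Spry3 had no probe set with a single gene symbol and were not analysed here. For Etv1, the 2 probe sets that named it also named another gene. Membership rested on gene names alone and used no measured value.

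FGF ligands bind receptor tyrosine kinases at the cell surface together with heparan sulphate, and the activated receptors act through FRS adaptors on the Ras and ERK cascade. ERK activity switches on the PEA3 group of ETS factors and also the inhibitors of the pathway, the Sproutys, the Spreds, Dusp6 and Il17rd, so that the transcripts of these inhibitors are widely used as readouts of the signal. In the eye, FGF signals are known for roles in the specification of the neural retina, in the start of ganglion cell differentiation and in lens development. Fgf11 to Fgf14 belong to the family by sequence but stay inside the cell, where they act on voltage-gated sodium channels.

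Retinal RNA came from 6 mice killed at postnatal day 4 (P4), 3 Nhlh2 knockout and 3 wildtype, all on a mixed C57/129 background, and each retinal sample was hybridised to 1 Affymetrix GeneChip mouse array. Nhlh2 encodes a basic helix-loop-helix transcription factor of neurons, and the construction of its knockout allele is not given in the sources used here. The mice formed 3 pairs of littermates, 1 knockout and 1 wildtype each, so that equal replicate numbers mark a shared litter. The targeted gene itself was not analysed here, so the genotype labels were not checked against its transcript.

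The signals were not on a common scale. The median signal was 68.4, 9.0 and 51.3 in knockout mice 1, 2 and 3, against 76.1, 95.5 and 56.9 in wildtype mice 1, 2 and 3. Knockout mouse 2 stood apart, with an Actb signal 274 times higher at the 3′ end than at the 5′ end of the transcript, where the other 5 arrays had ratios of 1.38 to 1.56. Comparisons between the genotypes were therefore made on knockout mice 1 and 3 and wildtype mice 1, 2 and 3. The summed signal of 16 lens genes was 165.4 and 269.1 in these knockout arrays, against 9993.6, 168.8 and 242.1 in the wildtype arrays, with wildtype mouse 1 far above the other 4 arrays. All 9 progenitor markers measured and all 8 ganglion cell markers measured were above the median of every one of the 5 arrays, as were 7 of 8 rod and cone markers. The counts were 6 of 9 for Mueller glia and astrocytes and 5 of 10 for amacrine and horizontal cells. They were 5 of 9 for pigment epithelium and melanocytes, 4 of 10 for vessels and 3 of 10 for microglia and macrophages. Each marker was read on its brightest probe set, and no share over all genes was taken for these counts.

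The first question was which members of the pathway were transcribed in the P4 retina. The median signal of each array served as the threshold of expression: probe sets above it were taken as expressed in that array, and a gene was when any of its probe sets was. By this measure 10 of the 38 genes (26.3%) were expressed in all 3 wildtype arrays, against 51.5% of all 12393 genes, and 12 of the 62 probe sets (19.4%) were, against 45.5% of all probe sets. Another 4 genes, Fgf15, Fgfr2, Fgfrl1 and Etv5, passed in 1 or 2 of the wildtype arrays, and 24 passed in none. For these counts no share over all genes was taken. Fgf15 and Fgfr2 passed only in wildtype mouse 1, the array with lens transcripts, and the part of lens in their signal was not tested. In both knockout arrays 12 genes passed. This count needed 2 arrays and the wildtype count needed 3, so they are not alike, and no share over all genes was taken for it. A signal below the median does not show that a transcript was absent, because a transcript confined to few cells is diluted in whole retina, and fewer cells of a type cannot be told apart from less RNA per cell in these samples.

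**Figure D1:**
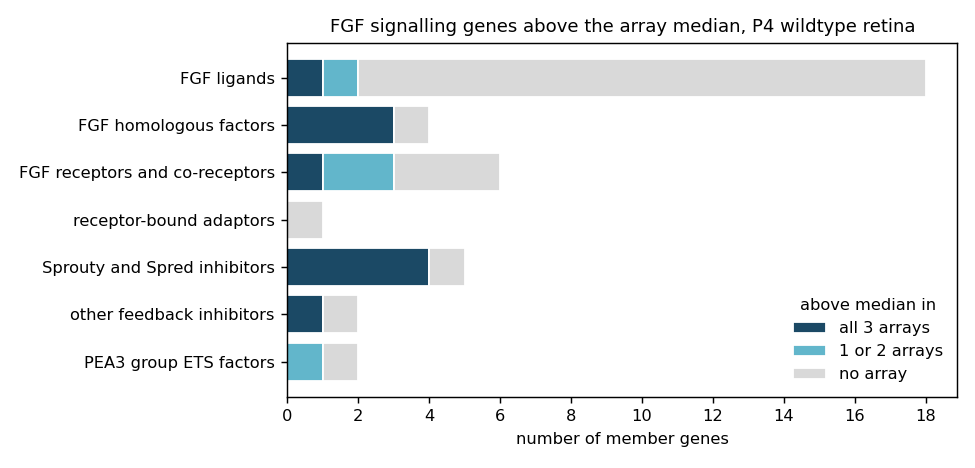
Number of FGF signalling genes (horizontal axis) by role, split by whether any probe set of the gene exceeded the array median in all 3, in 1 or 2, or in none of the wildtype arrays. Of 18 ligand genes 16 passed in no array and 1 in all 3. Of 5 Sprouty and Spred genes 4 passed in all 3, as did 51.5% of all genes on the array.

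Among the secreted ligands, only Fgf9 was expressed in all 3 wildtype arrays, with a mean deposited signal of 235 ± 46.6 (SD, n = 3). These signals are not on a common scale, so the SD also holds differences in brightness between arrays. Fgf9, which the retina is known to use in setting its border with the pigment epithelium, had signals of 275.5, 246.2 and 184.3, or 3.62, 2.58 and 3.24 times the median of each array. Fgf15, a ligand made by neural progenitors and, in the gut, the hormone that restrains bile acid synthesis, was less even. Its signals of 167.1, 80.2 and 53.3 in wildtype mice 1, 2 and 3 were 2.2, 0.84 and 0.937 times the median. The other 16 ligand genes (Fgf1 to Fgf8, Fgf10, Fgf16 to Fgf18 and Fgf20 to Fgf23) gave signals of 0.3 to 51.8 on 23 probe sets and passed in none of the wildtype arrays. They include Fgf1 and Fgf2, the ligands without a classical secretion signal, and Fgf8 and Fgf3, which act early in eye development.

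Of the 4 intracellular FGF homologous factors, 3 were expressed in all 3 wildtype arrays, against 1 of 18 ligand genes and 51.5% of all genes. Fgf13, an X-linked gene of neurons, gave 485.3, 509.9 and 360.5 on 1 probe set (1418497_at), or 6.38, 5.34 and 6.34 times the median. A second Fgf13 probe set (1418498_at) gave 16.6, 52.9 and 9.2 and passed in no array. Fgf11 was read likewise, at 108.1, 142.3 and 179.0 by 1439959_at and 16.8, 2.8 and 5.0 by 1421793_at. The disagreement of probe sets within these genes was not followed to individual isoforms. Fgf12, with a single probe set, gave 125.3, 122.7 and 79.0, and Fgf14 ranged between 14.9 and 64.3 on its 2 probe sets.

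Of the receptors, Fgfr1 was expressed in all 3 wildtype arrays, with signals of 98.4, 132.2 and 118.8 on 1424050_s_at. Its other probe set gave 94.3, 109.2 and 55.9 and exceeded the median in wildtype mice 1 and 2 only. Fgfr2 passed on 1433489_s_at in wildtype mouse 1 alone, at 93.3, against 67.6 and 47.4 in wildtype mice 2 and 3. Fgfrl1, a receptor-like protein without a kinase domain, remained near the median throughout, at 0.947, 0.822 and 1.53 times its value. Fgfr3, Fgfr4 and Klb, a co-receptor through which some hormone-like FGFs signal, were below the median in every wildtype array, at 0.9 to 69.7 on 9 probe sets. The adaptor Frs3 was also below it, with signals of 27.0 to 68.3.

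**Figure D2:**
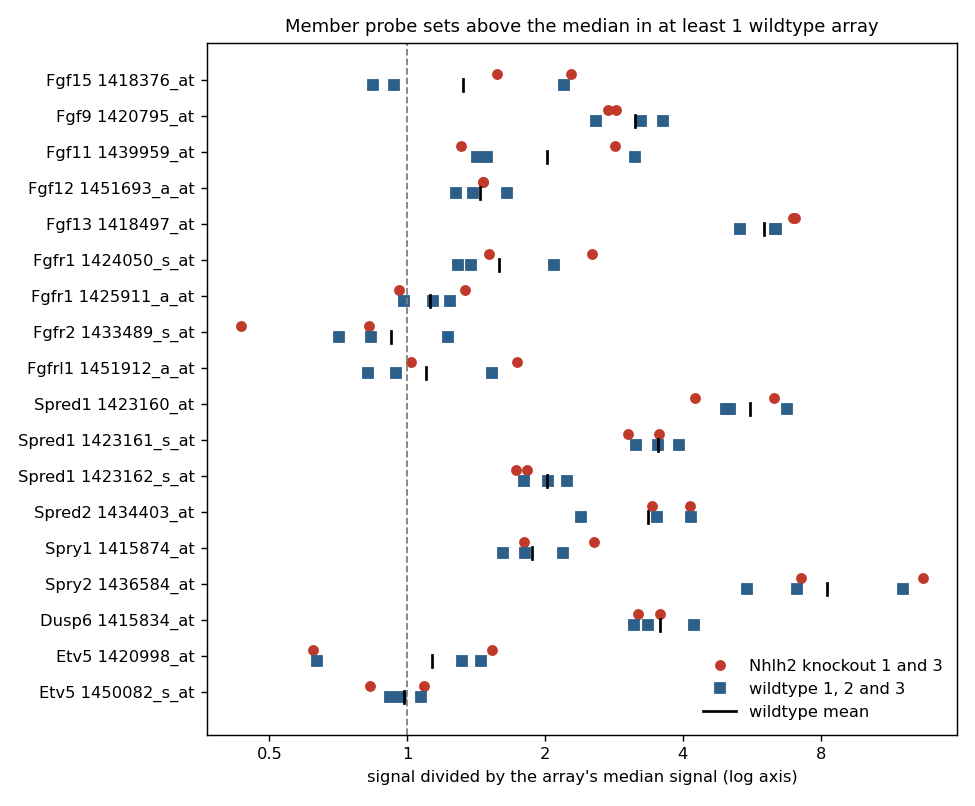
Signal of each member probe set that exceeded the median in at least 1 wildtype array, divided by the median signal of its array (log axis). Circles are knockout mice 1 and 3, squares are wildtype mice 1, 2 and 3, and black bars are wildtype means. Values of a row are to be compared among arrays and not with other rows, because probe sets differ in affinity. The ranges of knockout and wildtype points do not overlap for 1 of the 18 probe sets, against 11% of all probe sets chosen in the same way on this scale; it is Fgf13 1418497_at, at 7.03 and 6.96 in the knockout arrays and 5.34 to 6.38 in the wildtype arrays.

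Of the 7 feedback inhibitor genes, 5 were above the median in all 3 wildtype arrays, where 51.5% of all genes were. Spry2, a Sprouty that blocks the step between receptor and Ras, gave 420.3, 679.1 and 689.9 on 1436584_at and 27.3, 23.2 and 27.4 on 1421656_at. Spry1 gave 138.1, 208.7 and 92.3. Spred1, which brings neurofibromin to Ras, passed on all 3 of its probe sets. They gave 514.4, 473.8 and 288.9 (1423160_at), 268.1, 374.4 and 179.7 (1423161_s_at) and 137.0, 194.1 and 126.9 (1423162_s_at) in wildtype mice 1, 2 and 3. Spred2 gave 267.4, 229.0 and 237.5 on 1434403_at, or 3.51, 2.4 and 4.17 times the median of each array, while its other probe set gave 6.4 to 16.1. Dusp6, a phosphatase that inactivates ERK, gave 237.8, 319.6 and 240.0. The exceptions were Spry4, at 0.9 to 10.4, and Il17rd, a membrane inhibitor of the receptor complex, at 18.4 to 21.7.

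The ETS factors that respond to the pathway were near or below the median. Etv5 gave 100.1, 138.9 and 36.2 on 1420998_at, passing in wildtype mice 1 and 2, and 73.7, 102.4 and 52.3 on 1450082_s_at, passing in wildtype mouse 2 only. Etv4 gave 3.4 to 9.6. In all, 18 member genes had several probe sets, and for 4 of them (Fgf11, Fgf13, Spred2 and Spry2) 1 probe set passed in all 3 wildtype arrays and another in none. The share over all genes with several probe sets was not taken.

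Promoter sequences, from 250 bases before to 50 bases after the start, were found in RefSeq (mouse build GRCm38.p6) for 29 of the 38 genes, which had 37 promoters. Both strands were searched for the ETS core CCGGAA, to which PEA3 factors bind, and for CAGCTG, one form of the E-box bound by basic helix-loop-helix factors, the class to which Nhlh2 belongs. The longer ETS site CCGGAAGT and the Capicua site TGAATGAA or TGAATGGA were searched as well. The ETS core was present in 5 of the 37 promoters (13.5%), those of Fgf5, Fgf12, Fgfr4, Fgfrl1 and Spry2, and in 14.9% of all 32851 promoters. CAGCTG was present in 7 of the 37 (18.9%), of Etv5, Fgf11, Fgf13, Fgf14, Fgf21, Fgf22 and Fgfr3, and in 16.3% of all promoters. CCGGAAGT was present in 1 of the 37 (2.7%), of Fgfrl1, and in 3.89% of all. The Capicua site was present in 3 of the 37 (8.11%), of Fgf21, Fgf23 and Klb, and in 2.47% of all. The pair of ETS-core promoters and the pair of CAGCTG promoters printed here belong to members that were compared between the genotypes, and show the motif, in capitals, in its surroundings. They are Spry2 (chr14:105896770-105897069, minus strand), Fgfrl1 (chr5:108693979-108694278, plus strand), Fgf11 (chr11:69802231-69802530, minus strand) and Fgf13 (chrX:59585523-59585822, minus strand).
Spry2: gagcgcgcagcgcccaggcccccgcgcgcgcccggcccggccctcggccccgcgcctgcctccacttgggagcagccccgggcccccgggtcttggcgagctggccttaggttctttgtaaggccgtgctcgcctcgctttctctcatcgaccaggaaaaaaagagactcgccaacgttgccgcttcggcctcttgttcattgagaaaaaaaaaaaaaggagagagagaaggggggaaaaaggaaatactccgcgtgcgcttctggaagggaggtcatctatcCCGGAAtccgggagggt
Fgfrl1: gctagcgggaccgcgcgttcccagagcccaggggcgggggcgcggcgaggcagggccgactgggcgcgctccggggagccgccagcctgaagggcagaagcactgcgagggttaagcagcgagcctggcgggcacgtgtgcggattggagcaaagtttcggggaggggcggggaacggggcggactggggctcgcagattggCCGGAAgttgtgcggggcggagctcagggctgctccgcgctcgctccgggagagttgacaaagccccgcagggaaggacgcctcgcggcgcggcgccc
Fgf11: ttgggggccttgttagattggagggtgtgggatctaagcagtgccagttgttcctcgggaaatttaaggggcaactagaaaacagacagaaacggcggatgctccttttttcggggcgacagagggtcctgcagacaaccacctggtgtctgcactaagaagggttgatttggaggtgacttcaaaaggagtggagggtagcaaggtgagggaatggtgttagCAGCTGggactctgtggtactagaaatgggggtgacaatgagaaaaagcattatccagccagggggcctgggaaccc
Fgf13: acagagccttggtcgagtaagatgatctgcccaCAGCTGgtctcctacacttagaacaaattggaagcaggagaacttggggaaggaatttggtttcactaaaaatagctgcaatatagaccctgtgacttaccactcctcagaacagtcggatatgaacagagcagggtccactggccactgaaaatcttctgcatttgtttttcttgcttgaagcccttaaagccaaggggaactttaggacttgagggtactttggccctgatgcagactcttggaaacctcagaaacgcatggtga
A match to these letters is a description and not a site of binding. The Fgf13 window is 1 of 4 starts annotated for that gene, and the other 3 windows held none of these motifs.

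The second question was whether loss of Nhlh2 altered these transcripts. Signals were quantile normalized, and 17 probe sets of 13 member genes lay above the median in at least 2 of the 5 arrays and were compared among 11895 such probe sets. The remaining 45 member probe sets were too low to enter. None of the 17 passed an adjusted p of 0.05 (limma with Benjamini-Hochberg adjustment), and neither did any of the 11895 (0%). At an unadjusted p under 0.05, limma called 0 of the 17 and 105 of the 11895 (0.883%). Both knockout arrays lay above or below all 3 wildtype arrays for 0 of the 17 members and for 11% of all probe sets.

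The member differences were centred close to zero. Their median, knockout minus wildtype, was 0.01 on the log2 scale, with 10 higher and 7 lower and a range of -0.20 to 0.62, against a median of 0.00 and 49.1% lower over all probe sets. The split of the 17 was 7 higher and 10 lower under trimmed-mean scaling, and 3 higher and 14 lower with signals as deposited, where 92.1% of all probe sets were lower. Within littermate pair 1 the member median was -0.00 and within pair 3 it was -0.02. The precision was limited, because the 95% confidence interval of a member extended a median of 0.57 on either side of its estimate. With 2 knockout and 3 wildtype arrays, a difference of this size could therefore not be resolved for members with wider intervals. Narrower intervals would exclude 0 at such a difference, but they are not adjusted for the number of probe sets.

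**Figure D3:**
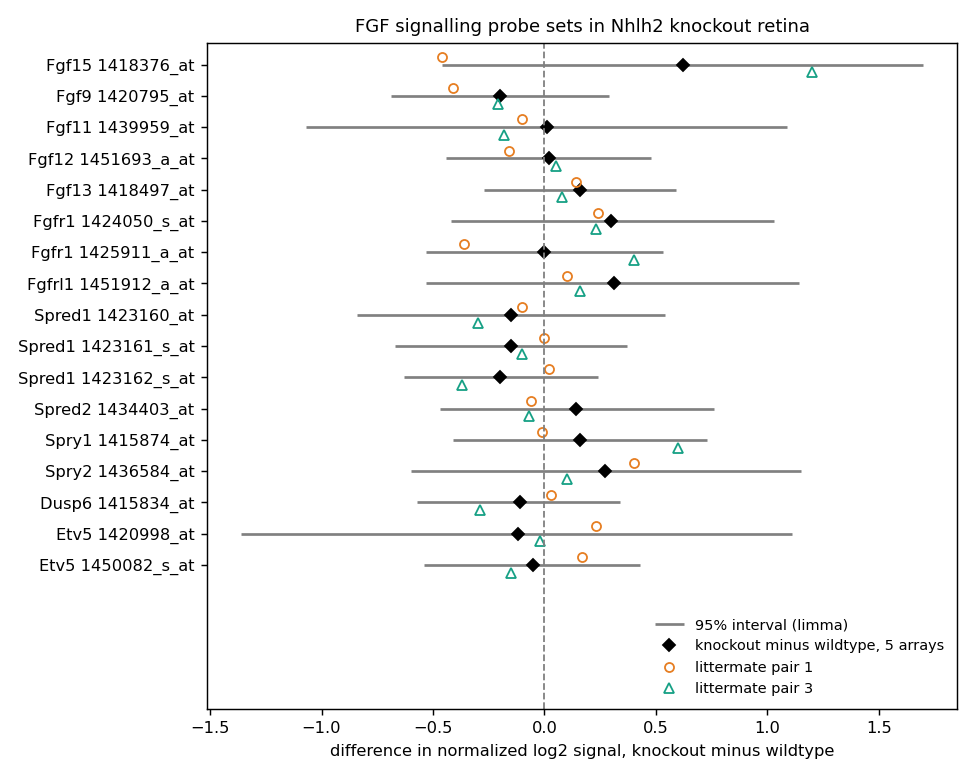
Difference in normalized log2 signal, knockout minus wildtype, for the 17 member probe sets compared. Diamonds are the 5-array estimates with 95% confidence intervals as lines, and open circles and triangles are the differences within littermate pairs 1 and 3. All 17 intervals cross 0. Pairs 1 and 3 both lie above 0 for 4 of the 17 and both below 0 for 5, against 25% and 23.1% of all probe sets. For the rest they lie on opposite sides of 0, among them Fgf15, at -0.46 and 1.20.

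Fgf15 had the largest estimate of the 17. Its normalized log2 signals were 6.81 and 7.25 in knockout mice 1 and 3, against 7.27, 5.90 and 6.05 in wildtype mice 1, 2 and 3. Wildtype mouse 1 was thus as high as the knockouts and the groups overlapped. The difference was 0.62 (SE 0.44, 95% CI -0.46 to 1.70, limma adjusted p = 1), and it was -0.46 within pair 1 and 1.20 within pair 3. Without wildtype mouse 1 it was 1.06, with an unadjusted p of 0.00868 and an adjusted p of 1 by limma. That fit drops the wildtype array highest in Fgf15, which was also the one with lens transcripts. In it 118 of 11740 probe sets (1.01%) had an unadjusted p under 0.05 by limma. The difference was 0.37 without wildtype mouse 2 and 0.44 without wildtype mouse 3. The 3 arrays high in Fgf15 were also those with the higher summed signal of progenitor markers, at 10472.6 and 12004.4 in the knockout arrays and 11279, 9716.4 and 10068.3 in wildtype mice 1, 2 and 3. This sum gives most weight to the brightest markers, and single markers did not all share its order. The part of progenitor content in the Fgf15 values was not tested.

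Fgf9, the other ligand compared, was 7.60 and 7.56 in knockout mice 1 and 3 and 8.01, 7.55 and 7.77 in the wildtype mice. The knockout values fell at the lower end of the wildtype range. Its difference was -0.20 (SE 0.20, 95% CI -0.69 to 0.29, limma adjusted p = 1) and was negative within both pairs, at -0.41 and -0.21. Differences were negative in both pairs for 5 of the 17 members and for 23.1% of all probe sets.

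Fgf13 1418497_at had log2 signals of 8.97 and 8.80 in the knockout arrays, against 8.83, 8.62 and 8.71 in the wildtype arrays. Knockout mouse 3 lay just below wildtype mouse 1, so that the groups overlapped here, although they did not when signals were divided by the array median. The difference was 0.16 (95% CI -0.27 to 0.59), and it was positive within both pairs, at 0.14 and 0.08. Positive differences in both pairs were found for 4 members (Fgf13, Fgfr1, Fgfrl1 and Spry2) and for 25% of all probe sets. Fgf12 was 6.71 and 6.64 in the knockout arrays and 6.86, 6.52 and 6.59 in the wildtype arrays, a difference of 0.02 (95% CI -0.44 to 0.48).

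No inhibitor passed the test in either direction. Dusp6, at 7.82 and 7.87 in knockout mice and 7.79, 7.93 and 8.15 in wildtype mice, differed by -0.11 (95% CI -0.57 to 0.34). Spred1 1423160_at was 8.81 and 8.11 in knockout mice and 8.91, 8.51 and 8.40 in wildtype mice, with overlap of the groups, and the 3 Spred1 probe sets differed by -0.15, -0.15 and -0.20. The sign of the Spred2 difference depended on the pairing. Spred2 1434403_at was 7.91 and 8.07 in knockout mice and 7.97, 7.45 and 8.14 in wildtype mice. Its difference was 0.14 (95% CI -0.47 to 0.76), but it was -0.06 and -0.07 within pairs 1 and 3 and -0.06 with the litter as a block, wildtype mouse 2 having no partner among the 5 arrays. Spry1 was 7.00 and 7.41 in knockout mice and 7.00, 7.31 and 6.80 in wildtype mice, a difference of 0.16 (95% CI -0.41 to 0.73), with -0.01 in pair 1 and 0.60 in pair 3. Spry2 differed by 0.27 (95% CI -0.60 to 1.15), with 0.40 and 0.10 in the pairs.

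The mice of litter 3 stood apart from the other 3 arrays about as often for members as for all probe sets. Knockout mouse 3 and wildtype mouse 3 lay together on one side of the other 3 arrays for 9 of the 17 member probe sets, from 7 genes, and for 54.5% of all probe sets. Both were above the other 3 arrays for 5 members and 27.6% of all probe sets, and both below for 4 members and 26.9%. The mice of litter 1 stood together in this way for 6 of the 17 members and 26.6% of all probe sets. Across the array, likeness did not follow the litters throughout, since the deviations of knockout mouse 1 from its group correlated more with those of wildtype mouse 2 (r = 0.368 over 11610 probe sets) than with those of its littermate (r = 0.272). Spry2 was 9.01 and 9.71 in knockout mice 1 and 3, against 8.61, 9.05 and 9.61 in wildtype mice 1, 2 and 3. Fgf11 1439959_at was 6.55 and 7.55 in the knockout mice, against 6.65, 6.73 and 7.73 in the wildtype mice. In both genes the mice of litter 3 were the high ones in each genotype.

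Of the 3 receptor probe sets compared, 2 had both litter 3 mice above the other 3 arrays, as 27.6% of all probe sets did. Fgfr1 1424050_s_at was 6.75 and 7.39 in knockout mice 1 and 3, against 6.51, 6.63 and 7.17 in the wildtype mice, a difference of 0.30 between the genotypes (SE 0.30, 95% CI -0.42 to 1.03). Fgfrl1 was 6.16 and 6.88 in the knockout mice, against 6.06, 5.86 and 6.72 in the wildtype mice. The other Fgfr1 probe set, 1425911_a_at, did not follow this order, at 6.09 and 6.52 in the knockout mice and 6.45, 6.34 and 6.12 in the wildtype mice. Etv5 1420998_at ran the other way, with litter 3 the low one, at 6.76 and 5.48 in knockout mice 1 and 3 and 6.54, 6.69 and 5.50 in wildtype mice 1, 2 and 3. Its second probe set had the litter 3 mice low as well, by less. These 2 mice also had the lowest median signals of the 5 arrays, 51.3 and 56.9, and the part of array brightness in this pattern was not tested.

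**Figure D4:**
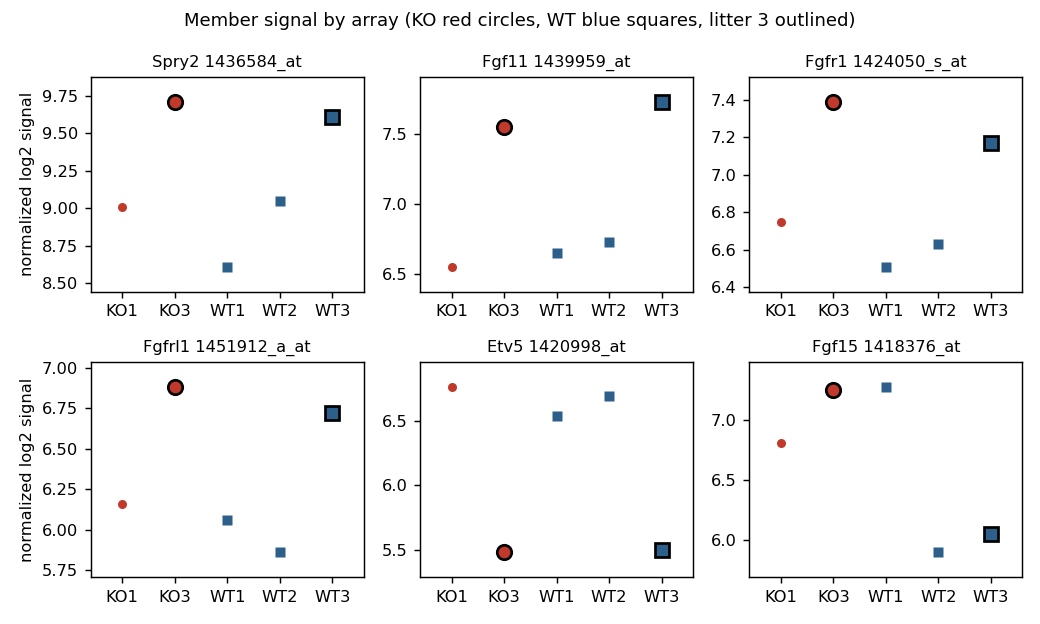
Normalized log2 signal of 6 member probe sets (vertical axis, a separate scale in each panel) in knockout mice 1 and 3 (circles) and wildtype mice 1, 2 and 3 (squares), with the mice of litter 3 outlined. The first 5 were chosen because litter 3 stood apart, and the last is the member with the widest wildtype spread of the 17. Litter 3 stood apart for 54.5% of all probe sets too. In the Spry2, Fgf11, Fgfr1 and Fgfrl1 panels both litter 3 mice are above the other 3, in the Etv5 panel both are below, and Fgf15 is split, at 7.25 in knockout mouse 3 and 6.05 in wildtype mouse 3.

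With the litter as a block in limma, again 0 of the 17 members and 0 of all 11895 probe sets passed an adjusted p of 0.05, while 399 of all probe sets and 0 members had an unadjusted p under 0.05.

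The partners of the FGF pathway outside the rule were also near zero. The 24 probe sets of Ras and MAP kinase cascade genes had a median difference of -0.00, with 12 lower and 12 higher. The adaptor Grb2, which links receptors to Ras, had a difference of 0.52 on 1 probe set (95% CI 0.04 to 1.0, unadjusted p = 0.0386, limma adjusted p = 1) and of 0.06 on another (95% CI -0.46 to 0.58). The first of these exceeded the array median in both knockout arrays, but among the wildtype arrays in wildtype mouse 3 only. The 20 probe sets for the synthesis and editing of heparan sulphate had a median of 0.03, with 6 lower and 14 higher, and none had an unadjusted p under 0.05 by limma. Of these, 15 were lower in pair 1, where their median was -0.09, and 16 were higher in pair 3, where it was 0.20. Over all 11895 probe sets, 5737 were lower in pair 1 and 5970 were higher in pair 3. Among 14 probe sets of other ERK-responsive genes, with a median of -0.00, the ETS factor Elk3 had a difference of -0.45 (95% CI -0.89 to -0.01, unadjusted p = 0.0447, limma adjusted p = 1). Its signal exceeded the array median in wildtype mice 2 and 3 only, at 98.5 and 64.8, and in no knockout array. It thus entered the comparison only through the group where it was higher. The other Elk3 probe sets were too low to enter.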

How the data were processed

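Each retinal RNA sample was labelled with biotin and hybridised to a GeneChip mouse array, 1 array per mouse. The intensities deposited by the authors are MAS 5.0 signals on a linear scale, corrected for background and for mismatch probes but not brought to a common level between arrays. The scaling target is not given in the sources used here. Of 22690 probe sets, 64 were controls, 691 named several genes and 1555 were not listed in the table of probes and genes. Arrays carry no counts, so the number of arrays sets the precision.

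The wildtype level of each member was taken from the deposited intensities, with the array median as threshold for expression. The study took the median where no present call was available, and used plain _at probe sets only, whereas all probe sets with a single gene symbol were counted here. For the comparison of genotypes, intensities were quantile normalized over 5 arrays (knockout 1 and 3, wildtype 1, 2 and 3), 1 was added, and log2 values were fitted with limma 3.58.1 in R 4.3.3. Probe sets above the array median in at least 2 of the 5 arrays were kept, and p-values were adjusted over all of these by Benjamini-Hochberg with a threshold of 0.05. The replicate numbers pair littermates by the design of the series; the correlation of deviations from the group means was 0.272, -0.163 and 0.122 for pairs 1, 2 and 3 over 11610 probe sets, and reached 0.368 (knockout 1 with wildtype 2) and 0.182 (knockout 2 with wildtype 3) between mice of different litters. Littermate differences were taken on the same log2 values, and litter as a block was an alternative, as were all 6 arrays, array weights, other scalings, filters and thresholds, and leaving out each array.

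The rule for naming was to give values by array for members above the median in all 3 wildtype arrays and for those with the smallest p in each direction, and other members by range. Etv5, Fgfr2 and the second probe sets of named genes were added after their values were seen. Members, gene lists and tests were chosen with earlier results of these data known. Gene names follow the probe table, and 0 differed from RefSeq.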

Additional observations from a re-analysis of the deposited data

Results flagged for a closer look

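Knockout mouse 2 was left out of the comparison of genotypes for its Actb signal. After quantile normalization of all 6 arrays, 26 of the 62 member probe sets were above the highest wildtype array in this mouse, as were 10199 of all 22626. An excess of over 1 on the log2 scale, together with a signal above the median of this array, was found for 11 of the 62 (17.7%), against 4087 of all 22626 (18.1%). Among the 11, the excess was 3.66 for Etv4, 3.23 for Fgf10, 2.78 for Fgf2, 2.35 for Fgf18 and 1.85 for Fgf7. It was 2.68 and 1.24 for 2 probe sets of Fgfr4, 2.31 for Fgf11 1421793_at, 1.91 for Fgf14 1449958_a_at, and 1.64 and 1.53 for the 2 probe sets of Fgf1. None of these transcripts was above the median of any wildtype array on the same probe set. Their deposited signals in this array were 9.5 to 21.3, where its median was 9.0.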

How the results depend on the processing

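The count of members past an adjusted p of 0.05 was 0 under every alternative but 1, and the count over all probe sets likewise, with 0 to 0 for both when single arrays were left out. With all 6 arrays weighted by estimated quality, 2048 probe sets passed, 4 of them members: Spry2 (0.73), Fgfr1 1424050_s_at (0.72), Fgfrl1 (0.81) and Etv5 1420998_at (-0.98). The weight estimation stopped before it converged and gave knockout mouse 3 a weight of 8.65, knockout mouse 1 0.522 and knockout mouse 2 0.0309, so that the knockout group rested mainly on 1 mouse. The median member difference moved to -0.36 with all 6 arrays, to -0.36 with all 6 arrays and the replicate block, and to -0.30 with signals as deposited, where 92.1% of all probe sets were lower. It ran between -0.02 and 0.15 when single arrays were left out, the highest without knockout mouse 1, and was 0.01 with the replicate block on 5 arrays, which changed no call. Signs of single members were less stable. Dusp6 and Fgf9 kept theirs under all 16 alternatives, while Fgf11 and Fgf12 did so under 7 and 6, and without knockout mouse 3 those of Spry2, Fgfr1 1424050_s_at, Fgfrl1, Spry1, Fgf11 and 2 of the 3 Spred1 probe sets turned. Of the 38 genes, 10 were expressed in all 3 wildtype arrays at the median, 23 at the 25th percentile and 3 (Fgf13, Spred1 and Spry2) at the 75th. With plain _at probe sets only there were 8, without Fgf12 and Fgfr1, and so no receptor. There were 10 to 11 when single wildtype arrays were left out. Without a filter, 4 of the 62 member probe sets had an unadjusted p under 0.05, against 818 of all 22626 (3.62%). They were Fgf23, Fgf22, Klb and Spred2 1423001_at, with adjusted p of 0.827 to 1 by limma. Signals near or below the array median limit what can be read for the 45 member probe sets not compared.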
